A study of Sus scrofa with 6 samples.

Results

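The genes described here mark macrophages and the innate immune system, and their mRNA was compared between a glycolytic and an oxidative skeletal muscle of the pig as a measure of the resident macrophages of the tissue. A list of 10 genes was searched, namely CD14, CD163, CD68, CSF1R, TLR2, TLR4, C1QA, C1QB, C1QC and LYZ. A probe was taken as a member when the array annotation named it by the symbol or gave the symbol in round brackets in its description. This gave 16 of the 43603 probes of the array, for 8 of the 10 genes, and no probe was found by this rule for CD68 or CSF1R. The muscles were the longissimus dorsi (LDM), a glycolytic muscle of the back, and the psoas major (PMM), an oxidative muscle of the loin. They were taken from unrelated female Landrace pigs at 210 days of age. All animals were without feed for 24 h before slaughter, and no treatment or allele distinguished the groups. Each muscle was measured on 3 one-colour Agilent arrays, and the labels give 3 pigs for the study. Every sample is labelled as a muscle, although the extraction protocol of the labels mentions adipose tissues.

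Macrophages live between the fibres of healthy skeletal muscle, where they clear dead cells and debris, sense microbes and take part in repair. CD14 and the toll-like receptors bind bacterial components at the cell surface, CD163 takes up haemoglobin bound to haptoglobin, the C1q chains start the classical complement pathway and lysozyme cleaves bacterial cell walls. Oxidative and glycolytic muscles differ in fibre type, capillary supply and fat content.

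All probes were 60 bases long. The longest run of bases that a member probe shared with a probe of another member gene was 6 to 8 bases. The sequences below are the probes of the complement chain C1QC, of the related receptors TLR2 and TLR4 and of a pair of CD163 probes, shown because the results turn on these transcripts. Capitals mark the longest run shared with a probe of another member gene.
C1QC A_72_P403253: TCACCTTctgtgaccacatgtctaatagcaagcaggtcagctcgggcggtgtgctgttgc
TLR2 A_72_P088356: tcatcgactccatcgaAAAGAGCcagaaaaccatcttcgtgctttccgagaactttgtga
TLR4 A_72_P303724: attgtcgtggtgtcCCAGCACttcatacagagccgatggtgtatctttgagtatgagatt
CD163 A_72_P170001: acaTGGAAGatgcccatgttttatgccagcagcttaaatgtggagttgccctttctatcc
CD163 A_72_P018171: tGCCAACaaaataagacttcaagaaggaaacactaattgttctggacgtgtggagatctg
The shared run lay in the LYZ probe for C1QC, and in a CD14 probe for the other 4. The CD163 probes A_72_P055186 and A_72_P160596 overlap and share a run of 26 bases, so their values are not separate measurements of the transcript. In the RefSeq table of Sscrofa11.1 the genes C1QA, C1QC and C1QB are neighbours on one chromosome.

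Levels are given as normalized log2 intensities, that is, log2 of the processed Cy3 intensity with each array centred on its 75th percentile, so that 0 is the level of that percentile. They are compared between arrays for one probe and not between probes. The arrays had 58.5% (LDM replicate 3) to 72.4% (LDM replicate 1) of their spots well above the background and no saturated spot. In PMM the share was 60.1% for replicate 1 and 62.5% for replicate 3. PMM replicate 3 had the most outlier spots, 161, beside 6 to 37 on the other arrays. All 27 probes of the muscle fibre list were detected over background on all 6 arrays, as were 13 of the 15 adipocyte probes. Thus mRNA of both lists was detected in both muscles, and the cells it came from were not tested. LDM and PMM arrays of a number shared a scan day, and those of replicates 2 and 3 also a slide. Whether a replicate number stands for one pig is not stated, and pig, scan day and RNA preparation cannot be told apart. The study describes the replicates of a muscle as biological ones, and the labels do not tie single arrays to pigs.

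Of the 16 member probes, 15 were detected over background on every array of at least one muscle and were tested, and 14 were detected on all 6 arrays. The second C1QC probe, A_72_P416818, was not well above background on any array and has no usable level. No difference of a member probe between PMM and LDM passed the test. In limma, 0 of 15 passed an adjusted p of 0.05, beside 0.031% of the 25825 probes tested on the array. None of the 15 had an unadjusted p under 0.05. The replicate block, a fit that compares the muscles within each replicate number, also gave 0 calls and 0 unadjusted p-values under 0.05 among the members, and called 0.0658% of all probes. An unadjusted p under 0.05 was reached by 2.63% of all probes without the block and by 11.1% with it. The lowest adjusted p of a member was 0.99997 without the block and 0.576 with it. PMM was higher in 6 probes and lower in 9, and the median log2 difference (PMM minus LDM) was -0.10, beside -0.04 over all tested probes. The LDM and PMM arrays overlapped for each of the 15 member probes, and they did not overlap for 5.94% of all probes with a value on every array. At so small a share, a count of 0 among 15 probes does not set the members apart. As whole tissue was measured, fewer macrophages and less mRNA per macrophage cannot be told apart.

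**Figure D1:**
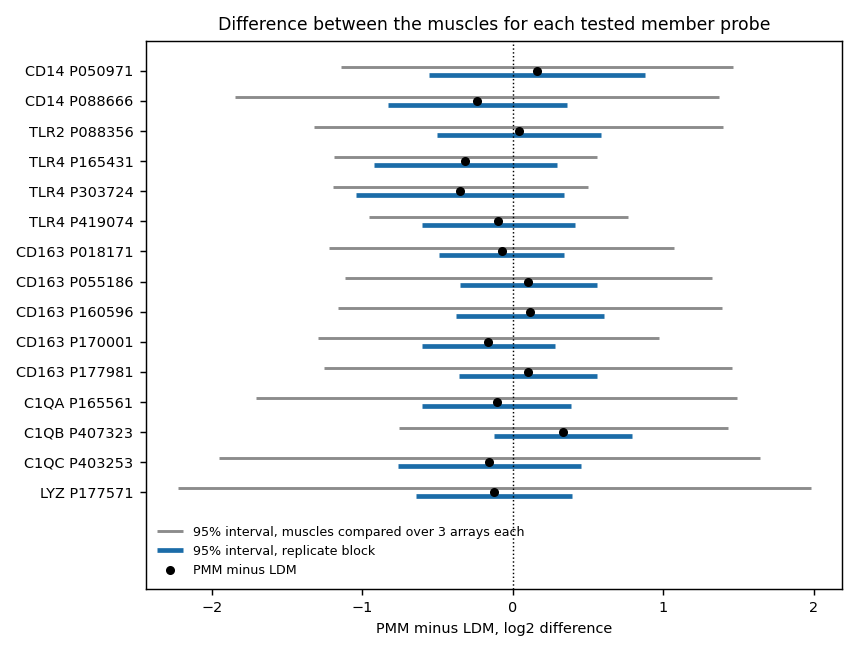
Log2 difference between PMM and LDM (x axis) for each of the 15 tested member probes (y axis). Points are the differences, grey lines their 95% intervals with 3 arrays per muscle and blue lines the 95% intervals of the replicate block. All intervals include 0, the grey ones reach from -2.23 to 1.98 and the blue ones from -1.04 to 0.88.

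The width of these intervals shows how precisely the differences were measured. Without the block the intervals extended 0.85 to 2.10 log2 units to either side, and each was wider to either side than the measured difference. They are not adjusted for the 25825 probes tested, so they do not give the size of difference that would have been called. For MB, myoglobin, of the muscle fibre list below, the difference was 1.47 and its interval without the block lay above 0. Its limma adjusted p was still 0.99997. With the block the 95% intervals of the members lay between -1.04 and 0.88.

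CD14, the co-receptor that hands bacterial lipopolysaccharide to TLR4, had 2 probes. For A_72_P050971 the 3 LDM arrays, given here and later in the order of replicates 1, 2 and 3, were at -0.67, 0.08 and 1.62. The PMM arrays were at 0.15, 0.29 and 1.07. The array of replicate 3 was the highest in either muscle and the muscles overlapped. The log2 difference was 0.16 (SE 0.57), with p = 0.80 in the exact two-sided permutation test, for which 0.1 is the smallest p that 3 against 3 allow. For A_72_P088666 the levels were -4.14, -4.30 and -1.84 in LDM and -4.25, -4.10 and -2.64 in PMM. Replicate 3 stood apart in both muscles, and the other 4 arrays lay within a narrow band. The difference of -0.24 (SE 0.70) was opposite in sign to that of the first CD14 probe, and neither passed the test.

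TLR2, which recognises bacterial lipopeptides, was at -1.68, -0.72 and 0.57 in LDM and at -1.19, -0.72 and 0.21 in PMM. The level of replicate 2 was the same in both muscles to the second decimal. The muscles differed by 0.04 on the log2 scale (SE 0.60, exact p = 1.0).

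TLR4, the receptor for lipopolysaccharide, had 3 probes and was lower in PMM in all of them, by less than the spread between arrays. With normexp background correction all of them were higher in PMM (by 0.0379 to 0.47), where the median over all tested probes was 0.12. For A_72_P303724, the member probe with the lowest p, the levels were -2.84, -2.79 and -1.76 in LDM and -2.98, -2.61 and -2.84 in PMM. LDM replicate 3 was the highest array and the other 5 lay between -2.98 and -2.61. The difference was -0.35 (SE 0.37, 95% interval -1.20 to 0.50), and the unadjusted p of 0.372 in limma stood beside 0.6 in the exact permutation test. It was 0.0012 without LDM replicate 3, so that its size rested on this array. For A_72_P165431 the levels were -1.74, -1.46 and -0.80 in LDM and -2.16, -1.21 and -1.58 in PMM, with a difference of -0.32 (SE 0.38, exact p = 0.5). Leaving out single arrays moved this difference to -0.0487 (LDM replicate 3), -0.0597 (PMM replicate 1), -0.52 (LDM replicate 1) and -0.54 (PMM replicate 2). The third probe, A_72_P419074, was well above background on 5 of the 6 arrays, PMM replicate 1 being the exception, and differed by -0.10 (SE 0.38). It entered the test through LDM alone.

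CD163, the haemoglobin scavenger receptor that is widely used to mark tissue macrophages and that serves as an entry receptor for a porcine arterivirus, had the most probes of any member, 5. For A_72_P177981 the levels were 1.66, 2.92 and 3.75 in LDM and 1.997, 3.04 and 3.59 in PMM. In both muscles replicate 1 was the lowest and replicate 3 the highest, and the ranges of the muscles lay almost on top of each other. The log2 difference was 0.10 (SE 0.59, exact p = 0.9). The overlapping probes A_72_P055186 and A_72_P160596 gave differences of 0.10 and 0.11. A_72_P018171, printed above, was at -1.82, -1.49 and -0.28 in LDM and at -1.82, -1.50 and -0.50 in PMM. Replicates 1 and 2 had nearly the same level in both muscles, and the difference was -0.0751 (SE 0.50). A_72_P170001 was at -3.63, -3.35 and -2.11 in LDM and at -3.55, -3.60 and -2.42 in PMM, with a difference of -0.16 (SE 0.50). Thus 3 CD163 probes were slightly higher and 2 slightly lower in PMM, and the 95% intervals of all 5 reached from -1.30 to 1.45.

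The chains of C1q, the recognition subunit of the first complement component, are made by macrophages in many tissues. C1QA was at 1.58, 2.65 and 4.13 in LDM and at 1.86, 2.38 and 3.80 in PMM. C1QC, by probe A_72_P403253, was at -0.01, 1.53 and 3.05 in LDM and at 0.43, 1.15 and 2.52 in PMM. C1QB was at -2.81, -1.96 and -1.19 in LDM and at -2.17, -1.75 and -1.03 in PMM. All 3 chains had the same order of arrays in the 2 muscles, with replicate 1 lowest and replicate 3 highest. The log2 difference between the muscles was -0.11 for C1QA (SE 0.70), -0.16 for C1QC (SE 0.79) and 0.34 for C1QB (SE 0.48). C1QB was the only member probe that was higher in PMM for every replicate number, by 0.63, 0.22 and 0.16. The replicate block lowered the standard error to 0.18, and the limma adjusted p was then 0.576, so that C1QB did not pass. C1QA and C1QC were higher in PMM only in the pair of replicate 1.

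LYZ, the gene of lysozyme, was at -1.14, -0.72 and 1.67 in LDM and at -1.65, -0.47 and 1.56 in PMM. Replicate 3 was far above the other arrays in each muscle. The difference between the muscles was -0.12 with the largest standard error of the tested members, 0.92, and its exact p was 0.9. With the replicate block the standard error was 0.21. Within PMM the highest and lowest LYZ arrays differed 9.23-fold, the widest range of any member probe in that muscle.

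**Figure D2:**
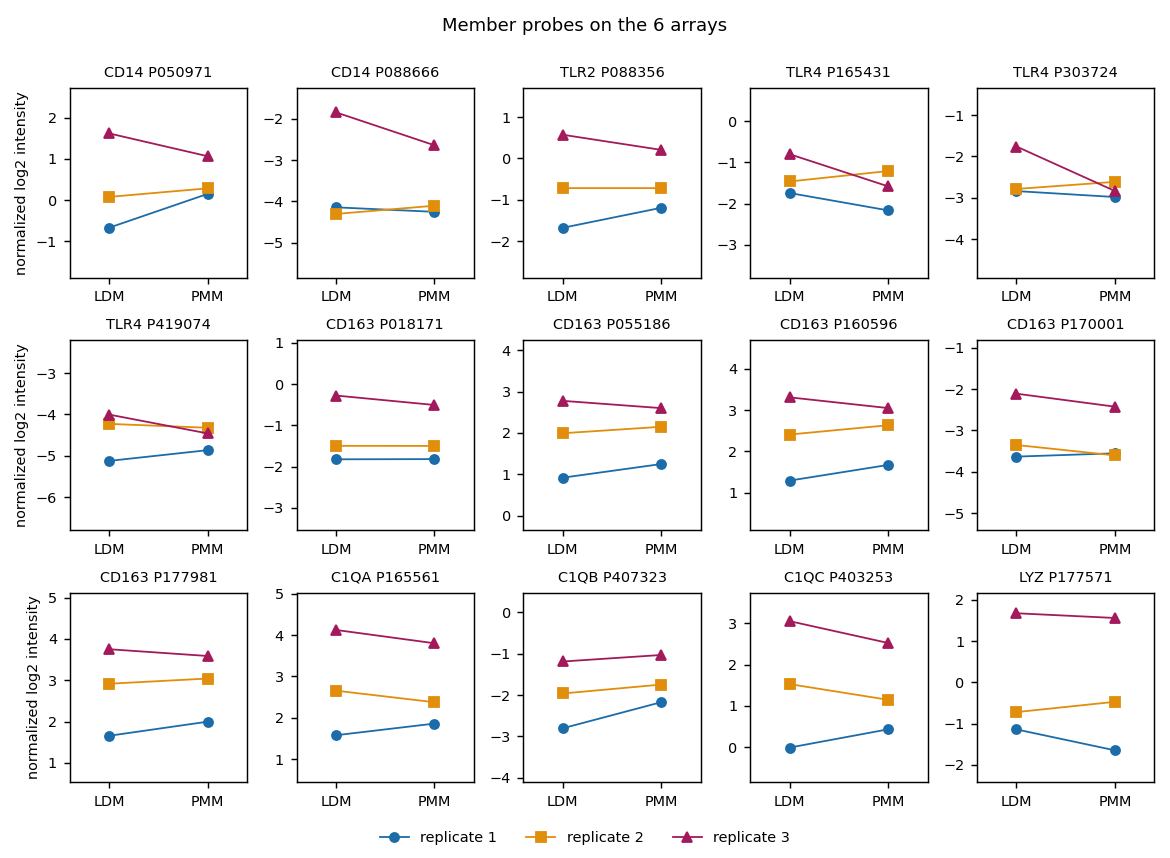
Normalized log2 intensity (y axis, 4.6 log2 units in every panel) of the 15 tested member probes in LDM and PMM (x axis), with 1 point per array and a line joining arrays of the same replicate number. Replicate 3 lies on top at both ends for all probes except those of TLR4.

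The levels of these genes differed more between replicate numbers than between muscles. Replicate 3 was the highest array in both muscles for 12 of the 15 member probes, whereas this held for 19.4% of all probes with a value on every array. The exceptions were the 3 probes of TLR4, for which replicate 3 was highest in LDM and replicate 2 in PMM. Replicate 1 was the lowest array in both muscles for 13 probes, and the whole order of the arrays was the same in both muscles for 10. Replicate 3 exceeded replicate 1 by a median of 2.02 log2 units in LDM and 1.35 in PMM, while the medians over all tested probes were -0.09 and -0.10. The largest of these gaps were those of C1QC in LDM (8.35-fold) and LYZ in PMM (9.23-fold), and the smallest was that of TLR4 A_72_P303724 in PMM (1.11-fold). Between arrays of the same number the muscles differed by a median of 0.26 log2 units in size, close to 0.27 over all probes.

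**Figure D3:**
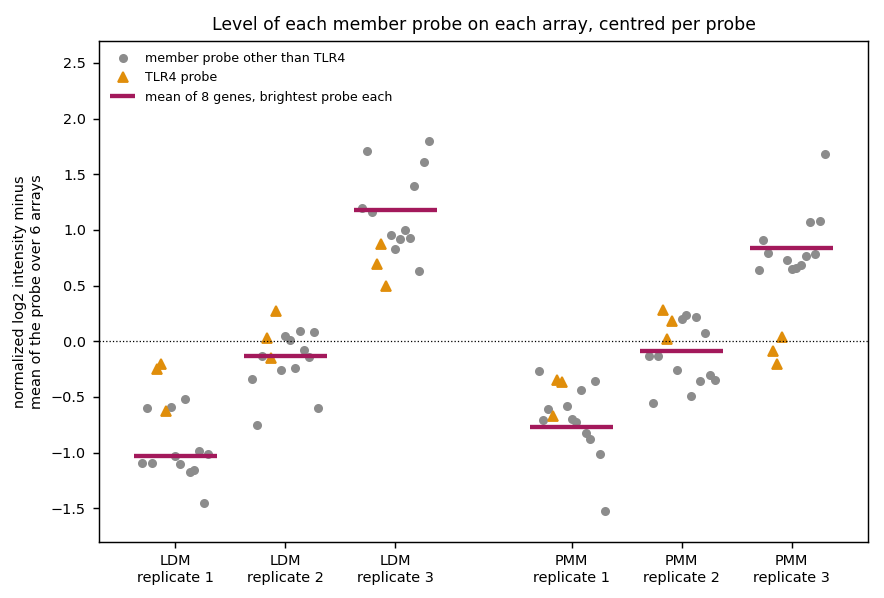
Normalized log2 intensity of each tested member probe minus its own mean over the 6 arrays (y axis), for the 6 arrays (x axis). Grey circles are probes other than TLR4, orange triangles the 3 TLR4 probes and red bars the mean of the 8 genes with the brightest probe each, which was -1.03, -0.14 and 1.18 in LDM and -0.77, -0.09 and 0.84 in PMM for replicates 1, 2 and 3.

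A limma F-test of the replicate number, with the muscle in the model, was chosen after this pattern was seen. It called 12 of the 15 member probes at an adjusted p under 0.05, beside 25.1% of all tested probes, and the 3 that it did not call were again those of TLR4 (adjusted p = 0.096, 0.163 and 0.344). The lowest adjusted p among the members was 0.028. The count fell to 0 with normexp background correction, without the filter on dim probes and without LDM replicate 2, LDM replicate 3, PMM replicate 2 or PMM replicate 3. In each of these settings 0 or 1 of all tested probes was called, so the loss was not particular to the members. An unadjusted p under 0.05 was then reached by 7 member probes with normexp (6.39% of all probes), by 12 without the filter (25.1% of all) and by 11 to 15 without one of these arrays (24.8% to 42.9% of all). Because both arrays of a number shared a scan day, a difference between animals and one between scan days cannot be told apart.

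The direction of the difference between the muscles changed with the replicate number. The median of PMM minus LDM over the member probes was 0.28 in the pair of replicate 1, with 11 of 15 probes higher in PMM, and 0.16 in the pair of replicate 2, with 9 higher. In the pair of replicate 3 it was -0.32, and C1QB alone was higher in PMM. The medians over all probes in these pairs were -0.01, 0.01 and -0.10. The SD of the member median over the pairs was 0.32, larger than the median itself. Leaving out single arrays turned the member median, to 0.56 when LDM replicate 3 was omitted, to 0.31 for PMM replicate 1 and to 0.0239 for PMM replicate 2, and made it -0.46 without LDM replicate 1. Normexp background correction turned it to 0.13, but moved the median over all tested probes to 0.12 as well.

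A further 6 probes carried the name of a member in words only and were not taken as members. One of them is annotated as macrosialin, the lysosomal glycoprotein that CD68 encodes. It was at 2.72, 3.26 and 4.47 in LDM and at 2.45, 3.10 and 4.06 in PMM, again with replicate 3 highest and replicate 1 lowest in both muscles. It was lower in PMM for every replicate number, by -0.27, -0.15 and -0.42. Its difference of -0.28 had a standard error of 0.55, and of 0.17 with the replicate block, where the limma p was 0.147 before and 0.606 after adjustment. The others were annotated as CD163 antigen, its antigen-like relative or toll-like receptor 4. Of these, the CD163 antigen probe A_72_P304849 was higher in PMM for every replicate number, by 0.08, 0.23 and 0.56. Its difference of 0.29 had a standard error of 0.58, and of 0.18 with the replicate block. The limma p of that block fit was 0.164 before and 0.625 after adjustment. Of the 6 probes 4 were tested, 0 were called with or without the replicate block and 0 had an unadjusted p under 0.05 without it, and their log2 differences lay between -0.28 and 0.29.

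No difference between the muscles passed the test in the other macrophage and myeloid genes either. Of 54 genes listed 28 had a probe, and 0 of the 38 tested probes were called in either direction, with 2 at an unadjusted p under 0.05 in limma. Their median difference was -0.04, and 17 were higher and 21 lower in PMM. The largest difference was that of FOLR2, a folate receptor found on resident macrophages, at 1.97, 1.396 and 2.52 in LDM and 1.09, 0.76 and 1.13 in PMM. Its arrays did not overlap between the muscles, as was so for 5.94% of all probes with a value on every array. The limma adjusted p of FOLR2 was 0.99997 without the replicate block and 0.235 with it (log2 difference -0.97, SE 0.36). CD9, a tetraspanin of many cell types including fibroblasts and endothelium, differed by -0.93 (SE 0.31), and its arrays did not overlap either. The difference of GPNMB, a glycoprotein of lysosomes, was -0.82 (SE 0.57). GPNMB was well above background on 3 LDM arrays and 2 PMM arrays, so it entered the test through LDM alone. Replicate 3 was the highest array in both muscles for 25 of the 38 probes. The median of this list turned to 0.36 without LDM replicate 3 and to 0.31 without PMM replicate 1.

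In the toll-like receptor pathway 0 of 30 tested probes were called and 0 had an unadjusted p under 0.05, with a median of -0.03 and 14 higher and 16 lower in PMM. LBP, the plasma protein that binds lipopolysaccharide, differed by 0.64 (SE 0.45), IKBKB, a kinase that activates NF-kB, by -0.54 (SE 0.44) and TLR3, the receptor for double-stranded RNA, by 0.41 (SE 0.54). IKBKB was well above background on 3 LDM arrays but on only 1 PMM array, so it entered the test through LDM alone. In the complement list outside C1q 0 of 16 probes were called and 1 had an unadjusted p under 0.05, with a median of -0.07. This was C8G, a subunit of the membrane attack complex, with a difference of 1.05 (SE 0.38) and an adjusted p of 0.99997, while CFB and C1S, proteases of the alternative and the classical pathway, differed by -0.53 (SE 0.60) and -0.495 (SE 0.44). Replicate 3 was highest in both muscles for 16 of the 30 and 10 of the 16 probes of these lists. Without LDM replicate 3 their medians turned to 0.24 and 0.32, and they also turned without PMM replicate 1, to 0.0676 and 0.10. That of the toll-like receptor pathway was 0.20 without PMM replicate 2.

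Lists of other cells that muscle holds were set beside the members. No probe of any of them was called with or without the replicate block. Over all tested probes the median difference was -0.04, and probes of the same gene are not separate measurements. All 11 tested lymphocyte probes (10 genes) had higher values in PMM, with a median of 0.30 and the largest difference, 0.685, in CD247, a chain of the T cell receptor complex. So had 12 of 13 endothelial probes (7 genes tested), with a median of 0.28 and 0.79 for ENG, endoglin. All 9 fibroblast and matrix probes (5 genes) had lower values in PMM, with a median of -0.44 and -0.84 for the collagen gene COL1A2. Lower values in PMM were also found for 12 of 15 adipocyte probes (9 genes tested), with a median of -0.61 and -0.946 for the adipokine ADIPOQ. PLIN1, at -1.03, was well above background on 3 LDM arrays and 2 PMM arrays, so it entered the test through LDM alone. Only 10 lymphocyte, 11 endothelial and 13 adipocyte probes were well above background on all 6 arrays. The counts by direction thus include probes that the filter could favour in one muscle. LPL, lipoprotein lipase, was an exception in the adipocyte list at 1.12. The 3 neutrophil probes had a median of 0.45, with LTF, lactoferrin, at 0.67, and the 27 muscle fibre probes one of 0.13, with MB, myoglobin, at 1.47 and the slow fibre genes MYH7 and TNNI1 at 1.08 and 1.03. No erythrocyte gene had a named probe. The medians of the lymphocyte list (-0.0323 without PMM replicate 3, -0.0214 without LDM replicate 1), the endothelial list (-0.0042 without LDM replicate 1) and the muscle fibre list (-0.0853 without PMM replicate 1, -0.0734 without LDM replicate 2) turned with single arrays, and those of the other lists kept their sign.

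Several of these lists also had their highest values in replicate 3. It was the highest array in both muscles for all 13 endothelial, 8 of 9 fibroblast and matrix, 8 of 11 lymphocyte, 2 of 3 neutrophil and 5 of 15 adipocyte probes, and for 0 of 27 muscle fibre probes, where the median of replicate 3 minus replicate 1 was -0.26 in LDM and -0.64 in PMM. The intensities summed over the tested probes, in multiples of the 75th percentile, ranged from 88.4 to 290.0 in LDM and from 157 to 285 in PMM for the endothelial list, and from 2.93 to 8.15 in LDM and from 4.199 to 10.03 in PMM for the lymphocyte list. They ranged from 267 to 628 in LDM and from 205 to 410 in PMM for the fibroblast and matrix list, from 111 to 298 and from 105.4 to 300.3 for the adipocyte list and from 2.10 to 4.10 and from 3.52 to 4.36 for the neutrophil list. For the members the sums were 13.9 to 66.5 in LDM and 17.4 to 54.3 in PMM, and for the muscle fibre list 9776 to 16861 and 11729 to 20218. The part of these cells in the values of the members was not tested.

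**Figure D4:**
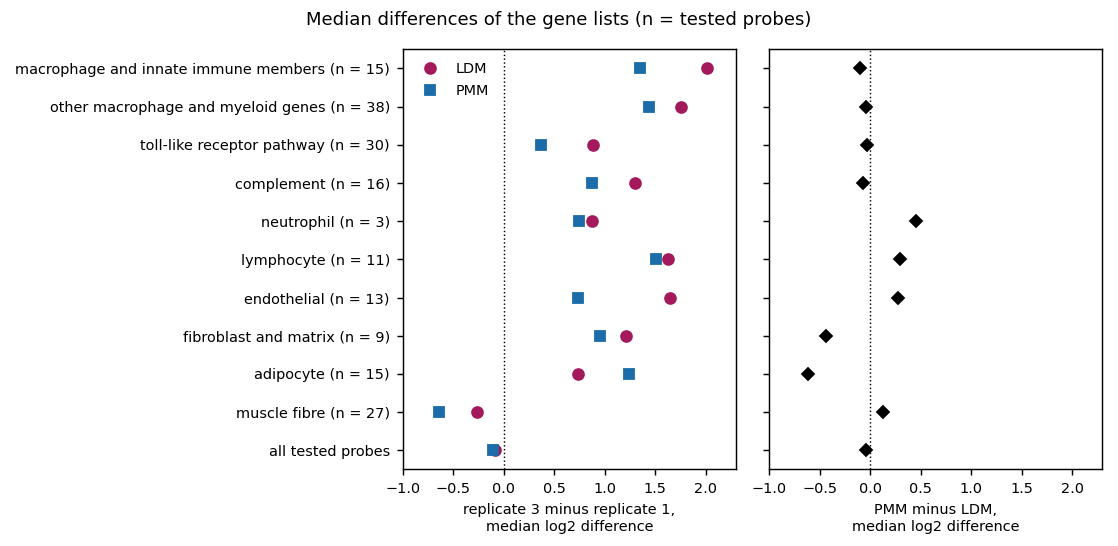
Median log2 difference over the tested probes of each gene list and over all tested probes (y axis), as replicate 3 minus replicate 1 within LDM (circles) and PMM (squares) on the left and as PMM minus LDM (diamonds) on the right. The members lie at 2.02 and 1.35 on the left and at -0.10 on the right, and the muscle fibre list lies below 0 on the left.

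The genes whose levels followed those of the members most closely over the 6 arrays were DOK1, an adaptor protein of tyrosine kinase signalling (r = 0.999), CHI3L1, a secreted chitinase-like protein (r = 0.998), FAM46A (r = 0.997), LY86, the partner protein of the receptor CD180 (r = 0.996), and CXCL16, a chemokine (r = 0.995). The likeness is Pearson's r with the mean of the centred member genes, each by its brightest probe. A ranked gene counts by its probe with the highest r, which favours high values, and 276 of the 1683 named genes ranked had an r over 0.9. The 6 arrays share 3 replicate numbers and are not independent. For LY86 the levels were -3.39, -2.23 and -0.81 in LDM and -2.89, -2.37 and -1.19 in PMM. Its difference between the muscles was -0.01, and those of the other 4 genes lay between -0.08 and 0.06.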

How the data were processed

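Total RNA was labelled with Cy3, per the labels, and hybridised to one-colour arrays. The authors deposited linear spot intensities from Agilent Feature Extraction 10.5.1.1 (version per the labels and file headers), with the local background subtracted, trends corrected and outlier spots marked, not normalized between arrays. Their value table holds the same intensities within 0.005 units.

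Here control and outlier spots were left out, spots of a probe averaged and log2 values centred on the 75th percentile of each array. Probes above background on all arrays of either muscle, with at least 2 values per muscle, were tested (25825) with limma 3.58.1 in R 4.3.3, two-sided, Benjamini-Hochberg adjusted over all of them at 0.05. Filtering on detection can favour probes that are bright in one muscle. Of 43603 probes, 3315 were named, by symbol or by RefSeq accession (641). The fits were tested on simulated data. The sequences of the other member probes are not reported here. The members and the gene lists were chosen with earlier results of these data known. From each other list the 3 probes with the largest differences are named at most, and the 5 genes most like the members, each by its probe with the highest r. The neighbours of genes come from Sscrofa11.1, and no build is named for the array. The number of arrays limits the precision. Over all tested probes, the departures of same-numbered LDM and PMM arrays from their muscle mean had r = 0.62, 0.70 and 0.56, all over 0.1, so the replicate numbers were taken to pair the arrays (replicate block). Normalization, background, filter, block, slide and single arrays were varied.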

Additional observations from a re-analysis of the deposited data

How the results depend on the processing

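No member probe was called, and no limma adjusted p of a member fell under 0.529, in any of the 18 alternatives. The signs of the small log2 differences (PMM minus LDM) were less stable, with 49 of 262 values turned, and each of the 15 tested probes turned at least once. With normexp background correction, which moved the median of all probes from -0.04 to 0.12, TLR4 was at 0.47 (A_72_P419074), 0.0822 (A_72_P303724) and 0.0379 (A_72_P165431), CD163 at 0.29 (A_72_P170001), 0.16 (A_72_P018171), -0.0535 (A_72_P177981), -0.0100 (A_72_P055186) and -0.0090 (A_72_P160596), CD14 A_72_P088666 at 0.24 and LYZ at 0.13. The arrays of replicate 1 lay on separate slides, so with the slide as a block the difference rests on replicates 2 and 3 only. In that fit CD14 A_72_P050971 was at -0.17, TLR2 at -0.18, LYZ at 0.0678 and CD163 at -0.0192 (A_72_P177981), -0.0097 (A_72_P055186) and -0.0172 (A_72_P160596). Median centring put TLR2 at -0.0178. Leaving out each array in turn gave ranges of -0.71 to 0.56 for C1QA, -0.0746 to 0.73 for C1QB, -0.92 to 0.61 for C1QC, -0.35 to 0.80 for CD14 A_72_P050971, -0.75 to 0.56 for CD14 A_72_P088666, -0.50 to 0.63 for TLR2, -0.997 to 0.74 for LYZ, -0.54 to 0.0012 for TLR4 A_72_P303724, -0.54 to -0.0487 for TLR4 A_72_P165431 and -0.43 to 0.13 for TLR4 A_72_P419074. For CD163 the ranges were -0.55 to 0.30 (A_72_P170001), -0.46 to 0.39 (A_72_P018171), -0.46 to 0.59 (A_72_P177981), -0.39 to 0.54 (A_72_P055186) and -0.41 to 0.60 (A_72_P160596). The highest value was without LDM replicate 3 for all of these probes. The median of the members ranged from -0.46 (without LDM replicate 1) to 0.56 (without LDM replicate 3). The medians of the other lists ranged from -0.77 to -0.19 (adipocyte), -0.49 to 0.32 (complement), -0.0042 to 0.73 (endothelial), -0.76 to -0.18 (fibroblast and matrix), -0.0323 to 0.67 (lymphocyte), -0.0853 to 0.31 (muscle fibre), 0.14 to 0.79 (neutrophil), -0.48 to 0.36 (other macrophage and myeloid) and -0.13 to 0.24 (toll-like receptor pathway). With the replicate block the median of the members was -0.10 as without it, and it changed no call of a member or listed probe. Over all probes, limma called 8 (679 at an unadjusted p under 0.05), 17 with the replicate block, 1 with normexp and 0 to 1 without single arrays. It called 529 when slides were the block, a fit that rests on replicates 2 and 3 only. It called 0 with the percentile over probes detected on all arrays, no filter on dim probes, one probe per gene, only probes detected on all 6 arrays, outlier spots kept, the deposited value table or the replicate block with quantile normalization. The F-test of the replicate number called 0 members with no filter on dim probes and with normexp, and 0 to 13 without single arrays, against 12. The cause of these changes was not tested.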
